A study of Homo sapiens with 12 samples.

Results

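Nuclear transfer RNA (tRNA) genes were followed in the small RNA libraries of human HEK293 cells that produced a catalytically inactive or a wild-type form of the ribonuclease DIS3L2. The genes were all features of the deposited small RNA tables that carry a tRNAscan name and do not lie on the mitochondrial chromosome. These were 648 of 15590 features, the rest being Ensembl transcripts, 1 mitochondrial tRNAscan feature and 4794 loci reconstructed from the reads. A RefSeq gene with both ends within 5 nt was found for 533 of the 648 genes, of which 429 are annotated as tRNA genes and 104 as pseudogenes, and 115 genes stayed without a name and were grouped by chromosome. The named genes covered 22 isotypes (the amino acid a tRNA carries, with initiator methionine counted apart) and 52 anticodons. They measured 68 to 176 nt, with a median of 73 nt. Chromosome 6 held 183 of the genes, chromosome 1 held 154 and chromosome 17 held 42.

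HEK293 is an established line derived from embryonic kidney. In the mut group, cells of the Flp-In T-REx system carried a doxycycline-inducible cassette for FLAG-tagged catalytic mutant DIS3L2, and in the WT group the same kind of cassette encoded the FLAG-tagged wild-type protein. In both groups the DIS3L2 coding sequence was recoded and the cassette also expressed sh-miRNAs, hairpins in microRNA backbones, that silence the cell's own DIS3L2. Both groups were kept in 100 ng/ml doxycycline for 3 days, and each was sequenced as 3 small RNA libraries, from RNA treated with tobacco acid pyrophosphatase and selected on gels for 20 to 200 nt by the labels (the series text gives a slightly higher upper limit), and as 3 rRNA-depleted total RNA libraries. Whether a group was 1 clone, and whether its replicates were separate cultures, is not given in the sources used here, so p-values measure no more than how these libraries vary, and that variation may be technical.

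RNA polymerase III transcribes tRNA genes from promoter elements that lie inside the gene, called the A box and the B box. The transcript is trimmed at both ends by RNase P and RNase Z, spliced where it holds an intron, given a CCA tail, modified at many bases and charged with an amino acid by its synthetase. Many tRNAs are encoded by several gene copies, and different tRNA sequences that share an anticodon are called isodecoders. DIS3L2 is a 3′ to 5′ exoribonuclease of the cytoplasm, known for degrading RNAs that carry a tail of uridines, among them precursor microRNAs and short structured RNAs made by RNA polymerase III. The comparison asks which tRNA species differ in level when the enzyme lacks its activity.

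Gene names follow RefSeq: TR, the letter of the amino acid, the anticodon, the isodecoder number and the copy number. TRP-TGG3-5 is thus copy 5 of proline isodecoder 3 with anticodon TGG, TRX stands for initiator methionine and TRU for selenocysteine. For 14 genes the whole sequence lies inside the RefSeq promoter window of a neighbouring gene (assembly GRCh38.p14, the hg38 build that the files use), and 5 of them are shown, 4 because results below name them and TRI-TAT2-2, which the count filter left out of the test, as an example of an intron-containing gene. Capitals mark the anticodon and the 9 letters of the B box, searched as GTTCNANNC. The B box letters were found in the sense direction in 14 of 14 genes, while 7.48% of 35116 promoter windows of 300 bases held them on either strand. The genes were predicted as tRNA from their sequence and their own windows are among the 35116, so this is a description and no test. TRP-TGG3-5 (chr16:3188094-3188165, plus strand) and TRP-TGG3-2 (chr14:20684016-20684087, plus strand) show that gene copies on different chromosomes can be identical, here at 72 of 72 bases. TRA-AGC2-2 (chr6:28863685-28863756, minus strand) is an alanine tRNA gene, TRF-GAA1-5 (chr13:94549650-94549722, minus strand) a phenylalanine gene, and TRI-TAT2-2 (chr6:27020346-27020439, plus strand) an isoleucine gene of a family known to carry an intron after the anticodon.
TRP-TGG3-5: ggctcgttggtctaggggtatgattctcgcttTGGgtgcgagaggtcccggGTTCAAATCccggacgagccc
TRP-TGG3-2: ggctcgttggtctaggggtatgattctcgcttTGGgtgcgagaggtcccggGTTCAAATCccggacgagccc
TRA-AGC2-2: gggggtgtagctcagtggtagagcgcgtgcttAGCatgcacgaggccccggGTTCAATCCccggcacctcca
TRF-GAA1-5: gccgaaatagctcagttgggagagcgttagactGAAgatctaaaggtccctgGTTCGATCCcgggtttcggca
TRI-TAT2-2: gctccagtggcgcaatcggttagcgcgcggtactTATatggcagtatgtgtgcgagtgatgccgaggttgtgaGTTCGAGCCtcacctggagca

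The small RNA libraries held 503699 to 1219718 fragments in mut cells and 493314 to 585737 in WT cells. The mut libraries differed among themselves more than the WT libraries did, with a chi-square per degree of freedom of 38.3 to 152 between mut pairs and 13.4 to 14.1 between WT pairs. This statistic also grows with depth, and mut replicates 1 and 2, at 723919 and 1219718 fragments, were deeper than any WT library. Their pair gave the 38.3, while the pairs with mut replicate 3, at 503699 fragments, gave 149 and 152. No pair agreed within sampling noise, and all 6 were kept. In the total RNA libraries DIS3L2, where reads of the cassette that align to the gene count with those of the endogenous copy, had 1137, 1046 and 1079 CPM (counts per 1000000 counts in genes) in mut libraries and 768, 819 and 760 CPM in WT libraries, so both groups expressed the gene, and these counts do not tell the mutant from the wild-type sequence. Of the 6 HEK293 markers, VIM had 1372 to 1481 CPM in mut and 1169 to 1282 CPM in WT libraries, and NEFL and INA were also present. PAX2, a renal progenitor gene, stayed at or under 1.11 CPM, NEFM at or under 0.472 CPM and LHX1 at or under 2.89 CPM in all 6 libraries. Among 10 markers of fibroblasts, blood and epithelium, COL1A2, CD3E and HBB were at 0 in every library, and EPCAM was the highest, with 53.7 to 58.7 CPM in mut and 36.0 to 39.6 CPM in WT libraries. The part of EPCAM-expressing cells in the results was not tested, and in bulk RNA fewer cells of a type and less RNA per cell cannot be told apart.

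Nuclear tRNA genes took 10.9%, 13.6% and 17.7% of all fragments in mut libraries and 16.9%, 18.4% and 17.7% in WT libraries. The mean share was 14.1% ± 3.43 in mut and 17.6% ± 0.759 in WT libraries (SD, n = 3 each). Mut replicates 1 and 2 lay below every WT library, while mut replicate 3 lay among them, so the groups overlapped. With selenocysteine tRNA taken out of both the tRNA and the library total, the shares were 7.72%, 8.78% and 11.8% in mut and 9.81%, 11.5% and 10.99% in WT libraries, again overlapping. The mean difference of −3.57 percentage points was −1.98 without mut replicate 1 and −5.39 without mut replicate 3. At least 1 fragment was counted in 403 to 416 of the genes in mut and 383 to 396 in WT libraries.

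**Figure D1:**
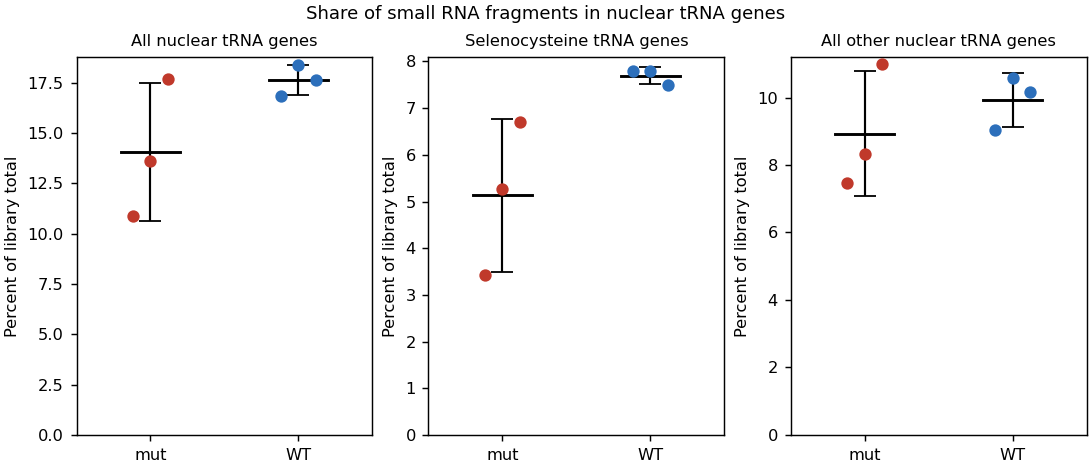
Percent of each small RNA library's fragments in all nuclear tRNA genes (left), in the selenocysteine tRNA genes (middle) and in all other nuclear tRNA genes (right). Points are libraries, bars are the mean and the SD of 3 libraries per group. For all genes the mut libraries run between 10.9% and 17.7% and the WT libraries between 16.9% and 18.4%, and only in the middle panel do the groups not overlap.

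A few genes held most of the fragments. Of the 648 genes 199 had 0 fragments in all 6 libraries, 449 had at least 1, and 352 were counted in every library. Over the mean of 6 libraries 1 gene held 40.5% of the nuclear tRNA fragments, 2 genes 54.8%, 12 genes 77.0%, 50 genes 88.8% and 100 genes 94.1%. Genes that RefSeq annotates as tRNA held 98.0%, and 49 of these 429 were at 0. Of those 49, 32 belong to isodecoders with several copies, and 21 of these lie in 1 stretch (chr1:161440825-161471205) in which 22 tRNA genes are annotated, all 21 being copies of isodecoders with fragments counted elsewhere. How reads common to such copies were placed is not given in the sources used here, and its part in these zeros was not tested. Pseudogenes held 0.594%, with 75 of 104 at 0, and genes with no RefSeq match held 1.38%, with 75 of 115 at 0. The 21 nuclear copies that resemble mitochondrial tRNAs were at 0 throughout. Of the 10 genes of undetermined isotype 9 were at 0, and of the 3 suppressor genes 2 were.

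The order of the isotypes was led by selenocysteine with 36.5% of nuclear tRNA fragments in mut and 43.7% in WT libraries. Glutamate followed with 19.8% in mut and 18.4% in WT libraries, then glycine with 7.28% and alanine with 7.17% in mut, against 5.26% for glycine and 7.12% for alanine in WT libraries. Tryptophan was the lowest of the standard isotypes, at 0.0530% in mut and 0.0519% in WT libraries. These are shares of fragments, not of tRNA molecules. Single genes dominated many isotypes: TRU-TCA1-1 held nearly all selenocysteine fragments, the other selenocysteine gene TRU-TCA2-1 having 6 fragments in all. Over the mean of 6 libraries TRE-TTC4-1 held 75.05% of the glutamate fragments. In asparagine, by contrast, the largest gene held 15.97%.

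**Figure D2:**
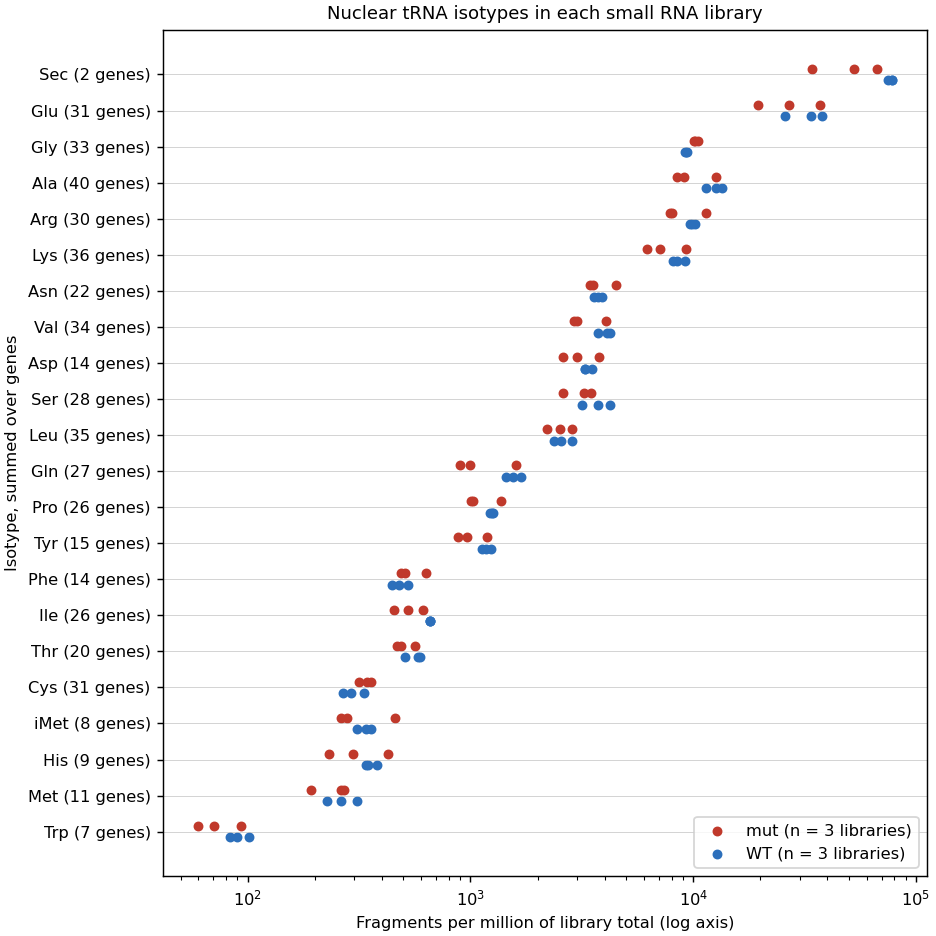
FPM (fragments scaled to a library total of 1000000), on a log axis, for the 22 isotypes of nuclear tRNA, each summed over the number of genes given beside its name. Red points are the 3 mut libraries and blue points the 3 WT libraries of an isotype. The selenocysteine points of mut lie wholly below those of WT, as do those of isoleucine, the glycine points of mut lie above, and the others overlap. Of the 25 tested groups, which include 3 chromosomes of unnamed genes, 1 lay above and 2 below. Among all 559 single features tested, 3.4% lay wholly above and 6.8% wholly below.

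Of the 648 genes 261 passed the filter on low counts and were tested together with 298 other annotated features. The edgeR quasi-likelihood test found 0 of the 261 higher and 0 lower in mut at an adjusted p of 0.05 (Benjamini-Hochberg over 559 features), where 0.179% of all tested features were called higher and 0% lower. The smallest adjusted p of a tRNA gene was 0.108. At an unadjusted p of 0.05, 7 tRNA genes were higher and 15 lower in mut, beside 16 of the 298 other features and 6.8% of all 559. DESeq2, run as an alternative, also called 0 of the tRNA genes in either direction. A p that misses the threshold does not show that levels were equal, and the median standard error of 0.24 on the log2 scale sets what could be seen.

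The log2 fold changes of the tRNA genes were centred near 0. Their median was −0.03, against 0.02 for all 559 features and 0.05 for the 298 others, and 122 of 261 were above 0. The middle range ran from −0.24 to 0.20, 232 genes lay within 0.5 of 0 and 5 lay beyond 1. All 3 mut libraries lay above all 3 WT libraries in 7 tRNA genes and below them in 24, where 3.4% of all features lay wholly above and 6.8% wholly below. Among the 298 other features 12 lay above and 14 below. Here and below, such separation is read from FPM without TMM scaling, while the fold changes use that scaling. Without it the median log2 fold change was −0.11 for the tRNA genes and −0.08 for all features. The part of scaling in the counts of separated genes was not tested.

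**Figure D3:**
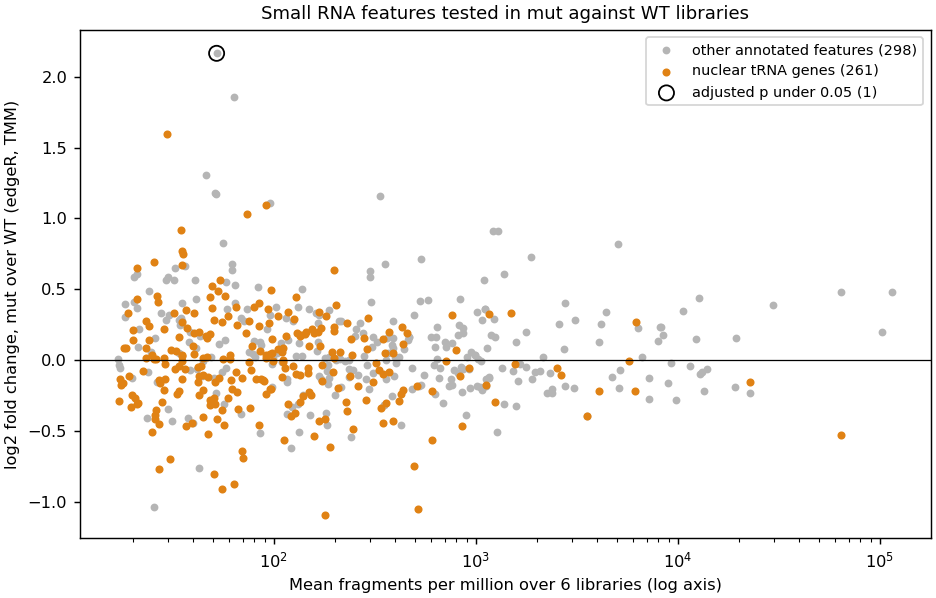
Log2 fold change of mut over WT libraries (edgeR, TMM scaling) against mean FPM on a log axis. Orange points are 261 nuclear tRNA genes, grey points 298 other annotated features, and the ring marks the 1 feature with an adjusted p under 0.05. No tRNA gene carries a ring, and 5 tRNA genes lie beyond 1 on the log2 scale.

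The selenocysteine tRNA inserts selenocysteine at recoded UGA codons, and its gene differs from other tRNA genes in having upstream promoter elements. TRU-TCA1-1 (chr19:45478602-45478687, minus strand, 86 nt) had 34291, 52745 and 66943 FPM (fragments per 1000000 of the library total) in mut libraries and 78048, 77888 and 74894 in WT libraries. Every mut library was below every WT library, but mut replicate 3 came close to them. The log2 fold change was −0.53 (SE 0.24), with an adjusted p of 0.699 in the edgeR quasi-likelihood test. Summed over both selenocysteine genes it was −0.55, with a 95% interval of −1.13 to 0.03 and an adjusted p of 0.907 in the edgeR test of isotype sums. The value rested on the mut replicates: the gene's log2 fold change was −0.35 without mut replicate 1, and −0.64 without mut replicate 3, where its adjusted p of 0.0605 (edgeR) was the lowest of the 6 fits with 1 library left out. Without mut replicate 3 the isotype sum stood at −0.73 and passed, with an adjusted p of 0.0216 (edgeR), and in these 6 fits it ran from −0.73 to −0.38. As a share of nuclear tRNA fragments, selenocysteine tRNA made up 31.5%, 38.8% and 37.8% in mut libraries and 46.3%, 42.4% and 42.4% in WT libraries, which do not overlap.

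The other genes of the highest 12 were ranked the same by FPM and by FPKM, which is FPM per kb of gene and on which levels of different genes are compared here. TRE-TTC4-1 (chr1:16535279-16535350, minus strand), a glutamate gene, came next with 291302 ± 96773 FPKM in mut and 338026 ± 76133 FPKM in WT libraries (SD, n = 3 each), against 596817 ± 190372 FPKM in mut and 894687 ± 20659 FPKM in WT libraries for TRU-TCA1-1. TRG-CCC4-1, a glycine gene, followed with 92331 ± 4507 FPKM in mut and 82072 ± 3005 FPKM in WT libraries. TRE-TTC3-1 had 76948 ± 23446 FPKM in mut and 93323 ± 12952 FPKM in WT libraries, so this gene and the 2 on either side of it in the order, TRG-CCC4-1 and TRR-CCT4-1, did not differ beyond their spread. TRR-CCT4-1, an arginine gene, had 76329 ± 16855 FPKM in mut and 80346 ± 5193 FPKM in WT libraries. The last of the 12, the lysine gene TRK-CTT2-5, had 15076 ± 5337 FPKM in mut and 19154 ± 2630 FPKM in WT libraries.

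Among these 12 genes TRG-CCC4-1 (chr1:16678271-16678341, minus strand) was the one with mut libraries wholly above WT. It had 6440, 6917 and 6309 FPM in mut and 5600, 6023 and 5859 in WT libraries, a log2 fold change of 0.27 with a 95% interval of −0.14 to 0.68. TRE-TTC4-1 ranged over 13937, 21115 and 27870 FPM in mut and 18836, 29798 and 24380 in WT libraries, and its groups overlapped. The remaining 9, of which 2 code for arginine, 2 for alanine, 2 for lysine, 1 for glutamate and 1 for aspartate and 1 has no RefSeq name, also overlapped, with log2 fold changes from −0.39 for TRA-AGC4-1 to 0.33 for tRNAscan_36085 (chr1:161621675-161621748). The value of tRNAscan_36085 was 0.63 without WT replicate 1 and 0.19 without WT replicate 3. TRA-AGC4-1 shares its position with an Ensembl transcript whose counts repeat its own.

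The 6 highest log2 fold changes ran from 0.75 to 1.59. These genes, and the 6 lowest that follow, were picked by fold change, so separation of their groups follows in part from that choice. TRK-CTT14-1 (chr16:3196153-3196225, plus strand), which RefSeq annotates as a pseudogene, had 101, 142 and 123 FPM in mut libraries and 62.0, 58.8 and 63.2 in WT libraries. All mut libraries were above all WT libraries, at a log2 fold change of 1.09 (SE 0.22), with an adjusted p of 0.108 in the edgeR quasi-likelihood test. TRE-TTC6-1 (chr1:148308922-148308993, minus strand), also a pseudogene, had 77.4, 104 and 109 FPM in mut and 52.3, 52.7 and 46.1 in WT libraries. The groups did not overlap here either, at 1.03 (SE 0.22; edgeR adjusted p = 0.133). The unnamed gene tRNAscan_13010 (chr6:27777885-27777956, plus strand) had 31.8, 39.4 and 61.5 FPM in mut and 5.82, 22.3 and 17.1 in WT libraries, at 1.59 (SE 0.39; edgeR adjusted p = 0.248). It was counted with 3, 11 and 10 fragments in WT libraries, so its value rests on few fragments. The glycine gene TRG-TCC4-1, the glutamine gene TRQ-TTG2-1 and the phenylalanine gene TRF-GAA1-5, whose sequence is given above, stood at 0.92, 0.77 and 0.75, each with overlapping groups and an adjusted p of 0.580 or higher (edgeR). TRG-TCC4-1 ranged from 0.67 to 1.48 and TRF-GAA1-5 from 0.38 to 1.53 with 1 library left out, the lower value without WT replicate 3 and the higher without WT replicate 1.

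At the other end, TRV-CAC1-4 (chr5:181173650-181173722, plus strand), a valine gene, had 58.0, 108 and 173 FPM in mut and 225, 300 and 213 in WT libraries. Its mut libraries lay wholly below WT, at −1.09 (SE 0.29; edgeR adjusted p = 0.283). TRQ-CTG9-1 (chr1:148353561-148353632, plus strand), a glutamine pseudogene in RefSeq, had 289, 198 and 510 FPM in mut and 843, 661 and 599 in WT libraries, also without overlap, at −1.05 (SE 0.28; edgeR adjusted p = 0.283). Over the mean FPM of 6 libraries this pseudogene held 37.9% of the signal of all glutamine genes. The unnamed tRNAscan_12960 (chr6:27150243-27150315), the lysine gene TRK-CTT5-1 and the histidine gene TRH-GTG1-6 stood at −0.91, −0.80 and −0.77 with mut wholly below WT, and the leucine gene TRL-TAA1-1 at −0.87 with overlapping groups. None of these 4 had an adjusted p under 0.28 in the edgeR test. TRL-TAA1-1 stood at −1.40 without mut replicate 2 and at −0.50 without WT replicate 3.

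**Figure D4:**
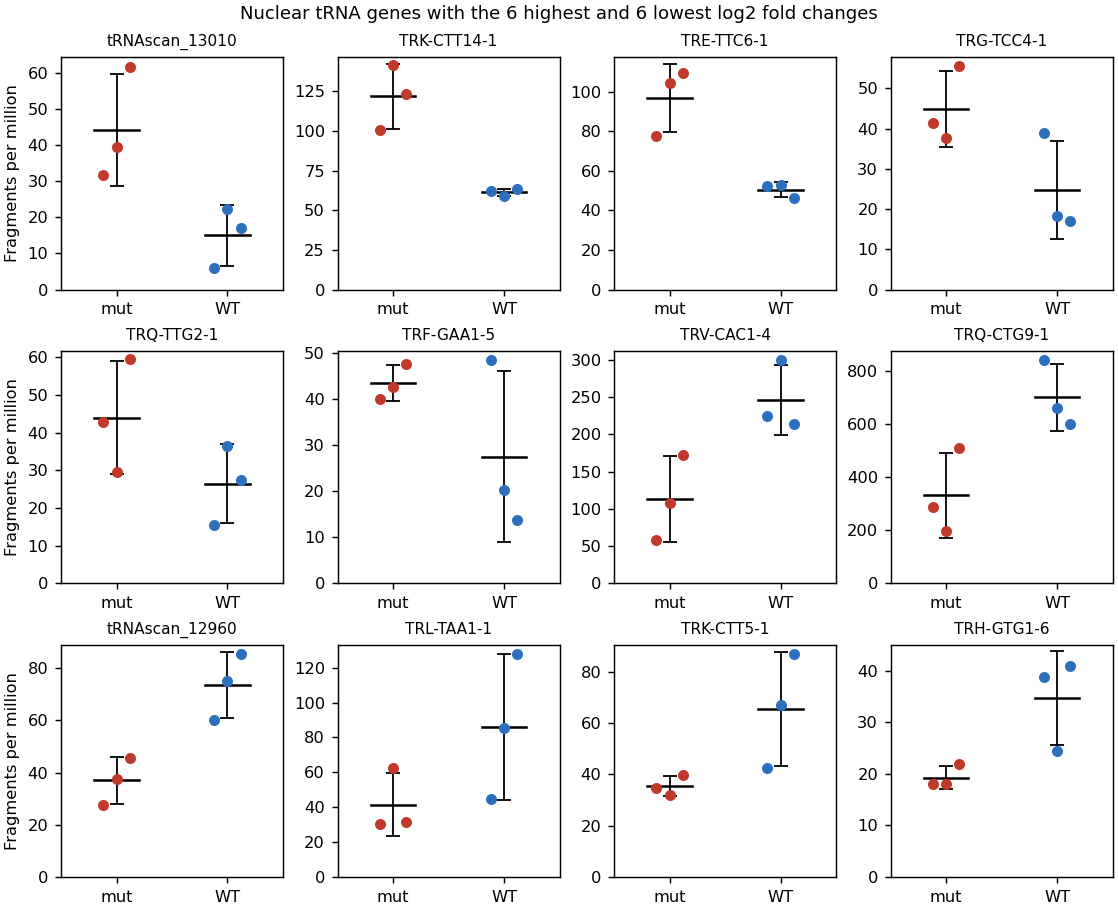
FPM in the 3 mut (red, left) and 3 WT (blue, right) libraries for the 6 nuclear tRNA genes with the highest and the 6 with the lowest log2 fold changes, each panel with its own axis from 0. Bars are the mean and the SD. TRK-CTT14-1, TRE-TTC6-1 and tRNAscan_13010 have mut wholly above WT, and 5 of the 6 lowest have mut wholly below WT. The genes were picked by fold change in these same libraries, so their separation is no further evidence. Of all 559 tested features 3.4% lay wholly above and 6.8% wholly below.

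Whether these genes passed the test depended on the count filter and on 1 library. With every counted feature kept (1065 tested), TRK-CTT14-1, TRE-TTC6-1 and tRNAscan_13010 passed as higher in mut, with edgeR adjusted p of 0.00533, 0.0176 and 0.00339, and TRQ-CTG9-1 and TRV-CAC1-4 passed as lower, with edgeR adjusted p of 0.000987 and 0.00104. These were 0.668% of the 449 tRNA genes higher and 0.445% lower, where 1.13% of all 1065 features were called higher and 0.188% lower. Without mut replicate 3, TRK-CTT14-1 and TRE-TTC6-1 passed as higher and TRQ-CTG9-1, TRV-CAC1-4 and TRV-CAC2-1 as lower, with edgeR adjusted p between 0.0103 and 0.0255. In that fit 0.733% of 273 tRNA genes were called higher and 1.1% lower, against 4.66% higher and 0.518% lower among all 579 features, and 25 of the 306 other features were called higher. Of the 261 genes tested 4 are RefSeq pseudogenes, 8 have no RefSeq match and 249 are RefSeq tRNA genes. The 5 genes beyond 1 on the log2 scale comprised 3 of the 4 pseudogenes, 1 of the 8 unmatched genes and 1 of the 249 tRNA genes. The pseudogenes went both ways, TRK-CTT14-1 at 1.09, TRE-TTC6-1 at 1.03 and TRQ-CTG9-1 at −1.05. Only 4 of 104 pseudogenes were tested, so no trait of pseudogenes can be read from them. In the 249 RefSeq tRNA genes alone, mut lay wholly above WT in 4 and wholly below in 22, in FPM without TMM scaling. Of all 559 features 3.4% lay wholly above and 6.8% wholly below. The median log2 fold change of the 249 genes was −0.04.

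Sums over gene families gave 0 calls as well. A sum does not change with how fragments were divided among the copies inside its family. Reads left out, or shared with genes outside the family, could still change it, and their treatment is not given in the sources used here. In the edgeR test of isotype sums 0 of 25 groups, the 22 isotypes and 3 chromosomes of unnamed genes, passed (background 0.31% higher, 0% lower), with 0 groups at an unadjusted p under 0.05, where 3.72% of the table had one. Of 51 anticodon sums 0 passed (0.287% higher, 0% lower), and 2 had an unadjusted p under 0.05, both lower in mut, where 4.01% of the table had one. These were Gln-CTG at −0.59, with 692, 598 and 1092 FPM in mut and 1368, 1202 and 1081 in WT libraries, and Pro-TGG at −0.47, with 240, 311 and 395 in mut and 440, 462 and 452 in WT libraries. Pro-TGG did not overlap between groups and Gln-CTG did. Of the 51 anticodon sums 1 lay wholly above WT and 5 wholly below, where 3.4% and 6.8% of all 559 single features did. The pseudogene TRQ-CTG9-1 held 49.0% of the Gln-CTG fragments summed over 6 libraries, and 51.4% of the mean FPM. The other 16 genes together had 403, 399 and 582 FPM in mut and 525, 541 and 481 in WT libraries, overlapping. Their log2 ratio of the means was −0.16, against −0.62 with TRQ-CTG9-1 included. Of 179 isodecoder sums 0 passed (0.206% higher, 0% lower), the smallest adjusted p being 0.0858 (edgeR), and 15 had an unadjusted p under 0.05, against 7% of that table. Leaving out mut replicate 3 gave 1 call among the isotype sums (selenocysteine), 3 among the anticodon sums (Ala-AGC, Gln-CTG and Sec-TCA) and 6 among the isodecoder sums, all lower in mut, and 2 isodecoder sums higher. Of all features 7.25% were then called higher and 1.21% lower in the table with isotype sums (331 tested), 7% higher and 1.12% lower in that with anticodon sums (357 tested), and 5.61% higher and 1.8% lower in that with isodecoder sums (499 tested). Without the count filter 2 isodecoder sums were called higher and 3 lower, against 1.4% higher and 0.323% lower of 929 tested.

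Initiator tRNA (iMet), which starts every protein, had 279, 263 and 457 FPM in mut libraries and 341, 310 and 359 in WT libraries. The groups overlapped, and the log2 fold change of the anticodon sum was 0.02 with a 95% interval of −0.45 to 0.48. It turned to −0.03 without TMM scaling, so it has no settled direction. All 8 iMet genes were counted, and TRX-CAT1-2 held 33.0% of their fragments.

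The families whose 5′ fragments are often seen in small RNA libraries were fixed as a list of 8 anticodons. Gly-CCC alone lay wholly above WT, with 9112, 9211 and 9019 FPM in mut and 8042, 8161 and 8087 in WT libraries. Of all 559 single features 3.4% lay wholly above. TRG-CCC4-1, described above as wholly above WT, held 71.9% of Gly-CCC over the mean of 6 libraries, so the 2 results are not separate. The other genes of the family were not tested as a sum. The replicates of each group were close together in FPM without TMM scaling. The TMM factors ran from 0.872 for mut replicate 1 to 1.12 for mut replicate 3. With these factors applied, the mut replicates lay further apart and mut replicate 3 fell among the WT libraries. The log2 fold change, which uses this scaling, was 0.23 with an adjusted p of 0.871 in the edgeR test. Gly-GCC, a well-known source of such fragments, had 383, 380 and 558 FPM in mut and 384, 391 and 446 in WT libraries, at 0.16, or 0.040 without mut replicate 3. Glu-CTC, Lys-CTT, Asp-GTC, His-GTG and Val-CAC ranged from −0.35 for Val-CAC to −0.06 for Asp-GTC, Val-AAC stood at −0.17, and none had an adjusted p under 0.87 (edgeR). Asp-GTC, Glu-CTC and His-GTG changed sign when 1 mut library was left out. Val-CAC ran from −0.54 to −0.24, Val-AAC from −0.25 to −0.08 and Lys-CTT from −0.25 to −0.05 with 1 library left out.

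The 4 families with introns are spliced by the TSEN endonuclease and the ligase RTCB. Tyr-GTA had 961, 881 and 1185 FPM in mut and 1180, 1232 and 1132 in WT libraries, at a log2 fold change of −0.18, which ran from −0.23 to −0.08 with 1 library left out. Leu-CAA stood at 0.06, Ile-TAT at 0.13 and Arg-TCT at 0.00. Groups overlapped in all 4, and none had an adjusted p under 0.87 in the edgeR test. Leu-CAA, Ile-TAT and Arg-TCT each changed sign with 1 library left out, and Arg-TCT was at −0.06 without TMM scaling.

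Fragments were unevenly assigned among gene copies of the same isodecoder, which by name share their mature sequence. Their genes can still differ where an intron lies in them, and copies differed in gene length in 4 isodecoders, Arg-TCT-3, Ile-TAT-2, Leu-CAA-1 and Tyr-GTA-5. Of 57 isodecoders with at least 2 copies 49 had 100 or more fragments, and in 38 of these 1 copy held over 50% of them, with a median of 68.3% for the top copy. The top copy was the same gene in all 6 libraries in 42 of the 49. The glutamate isodecoder Glu-TTC-4 was the most uneven of the large ones: TRE-TTC4-1 had 88579 fragments and TRE-TTC4-2 (chr1:161422093-161422164) had 242. The alanine isodecoder Ala-AGC-2 was similar, with 92.7% in TRA-AGC2-2, and the asparagine isodecoder Asn-GTT-2 spread over 8 copies with 31.7% in the largest.

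Where both sequences are at hand, copies that are identical within the gene received different counts. TRP-TGG3-5 had 76, 181 and 92 fragments in mut and 100, 138 and 133 in WT libraries, 720 in all. TRP-TGG3-2, identical to it at 72 of 72 bases, had 63, 119 and 61 fragments in mut and 88, 54 and 83 in WT libraries, 468 in all. Reads inside 2 identical genes cannot be told apart by sequence, and how the authors placed such reads is not given in the sources used here, so values of single copies are uncertain. As log2 fold changes the pair stood at −0.61 for TRP-TGG3-5 and −0.39 for TRP-TGG3-2. Over the mean of 6 libraries, genes of isodecoders with 1 copy, 199 in number, held 71.8% of nuclear tRNA fragments. Among these TRU-TCA1-1 alone held 40.5% of nuclear tRNA fragments. Isodecoders of 2 to 4 copies held 19.4% in 93 genes, and those of 5 or more held 6.31% in 129 genes. The median gene had 35.2 FPM with 1 copy, 28.8 with 2 to 4 copies and 21.3 with 5 or more.

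**Figure D5:**
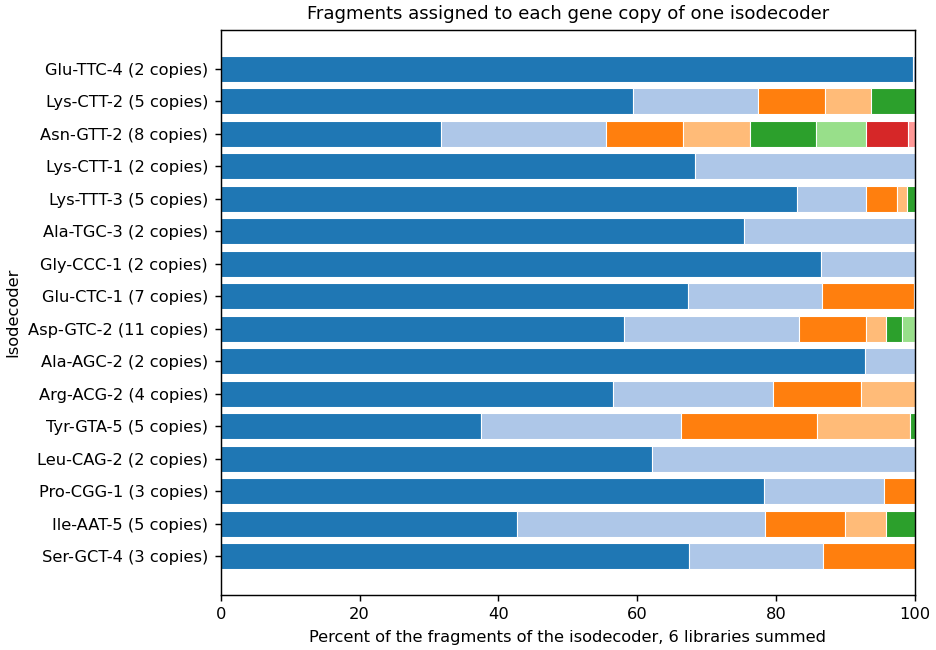
Percent of the fragments of an isodecoder that were assigned to each of its gene copies, summed over 6 libraries, for the 16 isodecoders with the most fragments among those with several copies. Each bar is an isodecoder and each colour a copy, ordered from the largest. TRE-TTC4-1 takes 99.7% of Glu-TTC-4, while in Asn-GTT-2 the largest copy takes 31.7%.

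The reconstructed loci reach past the ends of the genes and so count leader and trailer sequence as well. Of 4794 loci 326 lay over 309 nuclear tRNA genes, and the edgeR test of all loci called 0 of the 226 tested ones over tRNA genes (background 0.17% higher, 0% lower). The smallest adjusted p was 0.0832 (edgeR), reached by 2 overlapping loci with the same counts over TRK-CTT14-1. These had 102, 144 and 127 FPM in mut and 64.0, 60.8 and 64.9 in WT libraries, at a log2 fold change of 1.07. The locus over TRE-TTC6-1 followed at 1.03, with an adjusted p of 0.103 (edgeR). At an unadjusted p of 0.05 there were 19 such loci, against 7.81% of all tested loci. Without mut replicate 3 the test called 3 of them higher and 5 lower, 1.26% and 2.1% of 238, where 5.82% of all 619 tested loci were called higher and 0.969% lower. Without the count filter it called 4 higher and 3 lower, 1.28% and 0.962% of 312, where 1.79% of all 1286 were called higher and 0.311% lower. DESeq2 called 1 of the 226 loci lower, at a log2 fold change of −1.08 (DESeq2 adjusted p = 0.0443), and 0 higher. Of all 589 loci it called 0.17% lower and 0.509% higher.

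In 271 loci that hold 1 tRNA gene and no other annotated feature, the fragments of the locus beyond those of the gene were taken as lying outside it. These loci reached a median of 48 nt upstream and 62 nt downstream of the gene. The median locus had 5.36% of its fragments outside, 28 loci had none, and 20 had more outside than inside. Of 53067 such fragments 58.0% came from the locus of TRK-CTT1-1 (chr14:58239847-58240027), a lysine gene, with 30789 outside and 3110 inside the gene. In FPM, the outside fragments of this locus numbered 5637, 7257 and 8749 in mut and 7646, 9937 and 7857 in WT libraries, and the groups overlapped. The arginine gene TRR-CCG2-1 (locus chr17:68019819-68020045) had 7592 outside and 420 inside, and the glutamate gene TRE-TTC2-1 (locus chr13:44917857-44918057) had 1260 outside and 16 inside. RefSeq places a second gene, LOC107984619, in the window of the TRE-TTC2-1 locus.

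Over the 271 loci together 9.35%, 8.79% and 8.93% of fragments lay outside the tRNA gene in mut libraries and 7.84%, 8.74% and 7.86% in WT libraries. The mut libraries lay above the WT libraries, mut replicate 2 and WT replicate 2 being close. Without the loci of TRK-CTT1-1 and of selenocysteine tRNA the share was 6.54%, 6.12% and 6.80% in mut and 6.58%, 6.23% and 6.21% in WT libraries, which overlap. The rule by which a fragment was assigned to a gene or locus is not given in the sources used here, so a fragment that spans a gene end may count on either side.

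Chromosomes differed in how many of their tRNA genes were counted. Over the mean of 6 libraries, here and in the shares that follow, chromosome 1 held 47.9% of nuclear tRNA fragments other than selenocysteine. It has 154 genes, of which 71 were at 0. Chromosome 6, with the largest cluster of tRNA genes in the genome, held 17.3% in 183 genes with 35 at 0, and chromosome 16 held 6.99% in 34 genes with 4 at 0. On chromosome 2, 17 of 28 genes were at 0. Among genes with no RefSeq match tRNAscan_36085 stood out, with 76.6% of the fragments of the 47 unmatched genes on chromosome 1.

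Genes for proteins that make and charge tRNA were read from the total RNA libraries, where the edgeR quasi-likelihood test called 14.1% of 14409 genes higher and 13.1% lower in mut. Of 56 tested genes of tRNA maturation 4 rose and 8 fell. Their median log2 fold change was 0.03, against 0.01 over all genes. NSUN2, a tRNA cytosine methyltransferase, rose to 209, 216 and 221 CPM in mut libraries, against 178, 172 and 161 CPM in WT libraries (log2 fold change 0.36), and RTCB, the tRNA ligase, and TRMT2A, a uridine methyltransferase, rose by 0.21 and 0.24. TRMT5, which methylates the guanosine next to the anticodon, fell to 27.0, 29.2 and 32.5 CPM in mut, against 47.7, 45.4 and 47.1 CPM in WT libraries, a log2 fold change of −0.64. ADAT2, a subunit of the deaminase that makes inosine at the wobble base, and TRMT10C, a subunit of mitochondrial RNase P, stood at −0.44 and −0.34 and also fell. The following genes are named here for their roles after their values were seen: SSB (La), which binds the 3′ end of new RNA polymerase III transcripts, fell to 91.9 ± 12.8 CPM in mut, against 116 ± 5.77 CPM in WT libraries, and TRNT1, which adds CCA, fell to 27.1 ± 1.53 CPM in mut, against 34.3 ± 0.764 CPM in WT libraries (SD, n = 3 each). Without WT replicate 3 RTCB and TRMT2A no longer passed and 1 gene of this list rose, without WT replicate 1 TRMT2A no longer passed, and without WT replicate 2 the list had 13 genes that fell.

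Of 24 tested genes for cytosolic aminoacyl-tRNA synthetases and their partners 7 rose and 3 fell in mut. Of all 14409 genes 14.1% were called higher and 13.1% lower. The median log2 fold change of the list was 0.12. The threonyl-tRNA synthetase TARS1 rose to 412, 480 and 452 CPM in mut, against 376, 348 and 372 CPM in WT libraries, a log2 fold change of 0.31. The scaffold protein AIMP2 and the glutamyl-prolyl-tRNA synthetase EPRS1 rose by 0.31 and 0.28. The phenylalanyl-tRNA synthetase beta chain FARSB fell to 80.3, 81.8 and 87.6 CPM in mut, against 110, 106 and 105 CPM in WT libraries, a log2 fold change of −0.34, while the scaffold protein AIMP1 and the glycyl-tRNA synthetase GARS1 fell by 0.32 and 0.18. The call of GARS1 is lost when the replicate number is fitted as a block (edgeR adjusted p = 0.0865) and without mut replicate 1, mut replicate 3, WT replicate 1 or WT replicate 3. Of the 6 tested genes that make or use selenocysteine tRNA 0 rose and 0 fell, with a median log2 fold change of −0.04. Among these the kinase PSTK, which phosphorylates the serine on selenocysteine tRNA, stood at 0.30 (edgeR adjusted p = 0.104). Without mut replicate 2 the test called 1 gene of this list higher.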

How the data were processed

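Small RNA: the authors deposited, per feature, fragment counts, FPM (a signal, fragments scaled to a library total of 1000000) and FPKM. Total RNA: the authors deposited read counts per Ensembl gene. The submitters' processing notes name hg38 as the build, STAR 2.4.0 and HTSeq 0.6.1, with DESeq2 1.8.2, CASAVA 1.8.2, FastQC 0.11.3 and SAMtools 1.2-10, and give no roles. How reads with several alignments were placed and whether strand was used is not given in the sources used here, and a fragment can count in a tRNA gene, in an overlapping transcript and in a reconstructed locus.

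Counts of mut and WT libraries were compared in edgeR 4.0.16 with its quasi-likelihood test (R 4.3.3, filterByExpr, TMM scaling, two-sided, Benjamini-Hochberg at 0.05), 3 libraries each. Library sizes were the totals behind the deposited FPM signal. Rows naming no gene held 57.8% to 63.2% of total RNA reads and were left out, and gene counts were 8315986 to 12675042 per library. Sums per isotype, anticodon and isodecoder replaced the single genes in tables of their own, and loci were tested apart. Each standard error was worked out from the fold change and the F value, and intervals are 95%. DESeq2 1.42.0, limma 3.58.1 on log2(FPKM + 1), other scalings, no count filter and leaving out libraries were alternatives.

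The genes and lists were chosen with earlier results of these data known. Named were the 12 genes of highest mean FPM, any gene past the test, the 6 highest and 6 lowest log2 fold changes, special families and, per total RNA list, the 3 smallest adjusted p in each direction. Replicate numbers are shared between groups. The main test used no block, and a fit with the replicate number as a block was an alternative. RefSeq sequences and names are from GRCh38.p14. No sequence was printed for genes outside the available windows.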

Additional observations from a re-analysis of the deposited data

How the results depend on the processing

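Counts of nuclear tRNA genes, isotype, anticodon and isodecoder sums past the test stayed at 0 in both directions under no TMM scaling, RLE size factors, DESeq2 and the replicate block, as did single genes under limma. DESeq2 called 1 locus lower, 0.442% of the 226 over tRNA genes, where 0.17% of all 589 loci were called lower and 0.509% higher. Without the count filter (more features tested) the calls were 3 genes higher and 2 lower, 2 isodecoder sums higher and 3 lower, and 4 loci higher and 3 lower. Leaving out 1 library gave 0 to 2 genes higher and 0 to 3 lower, 0 to 1 isotype sums, 0 to 3 anticodon sums and 0 to 6 isodecoder sums lower, 0 to 2 isodecoder sums higher, and 0 to 3 loci higher and 0 to 5 lower; each upper value came without mut replicate 3. For total RNA it gave 1 to 5 tRNA maturation genes higher, 7 to 13 lower, and 0 to 1 genes of the selenocysteine route higher. The causes were not tested.

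Signs turned only for values near 0. Without TMM scaling the iMet isotype sum was −0.025, iMet-CAT −0.026 and Arg-TCT −0.061, and with the replicate block the iMet isotype sum was −0.0027. With 1 library left out, log2 fold changes ran from −0.20 to 0.16 for the iMet isotype sum, −0.18 to 0.16 for iMet-CAT, −0.13 to 0.13 for Arg-TCT, −0.13 to 0.023 for Asp-GTC, −0.37 to 0.049 for Glu-CTC, −0.29 to 0.070 for His-GTG, −0.020 to 0.29 for Ile-TAT, −0.031 to 0.13 for Leu-CAA, −0.14 to 0.021 for TRD-GTC1-1, −0.29 to 0.032 for TRE-TTC4-1, −0.19 to 0.010 for TRK-CTT4-1, −0.11 to 0.056 for TRR-CCT2-1 and −0.080 to 0.057 for TRR-CCT4-1.

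Replicate numbers are shared between the groups, and the deviations of same-numbered small RNA libraries correlated at 0.20, −0.14 and −0.36. With 3 libraries per group such values cannot decide whether same-numbered libraries shared a batch. With the replicate block 0 tRNA genes passed in either direction, and TRU-TCA1-1 stood at −0.55. Depth limits the 387 genes left out by the filter, for which no difference could be tested.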
